A study of Mus musculus with 6 samples.

Results

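Prostaglandins are short-lived lipid signals that cells make on demand from arachidonic acid. Phospholipases release the acid from membranes, the cyclooxygenases encoded by *Ptgs1* and *Ptgs2* turn it into prostaglandin H, and terminal synthases convert that into prostaglandin E, prostacyclin, prostaglandin D or thromboxane. Each product acts through its own G protein-coupled receptors, and the dehydrogenase encoded by *Hpgd* inactivates prostaglandins E and F. In tendon, prostaglandin E is best known as a product of loaded or inflamed tendon cells, and *Ptgs2* and *Ptges* are the inducible pair of enzymes that makes it. The 10 genes described here are the cyclooxygenases *Ptgs1* and *Ptgs2*, the terminal synthases *Ptges* and *Ptgis*, the prostaglandin E receptors *Ptger1*, *Ptger2*, *Ptger3* and *Ptger4*, the prostaglandin F receptor *Ptgfr*, and *Hpgd*. They were taken by symbol from the 44788 gene symbols of the count table, and all 10 were found.

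Bulk RNA-seq, which measures the RNA of all cells of a tissue together, was available as 3 WT and 3 *Mkx*-/- libraries of mouse tail tendon. All were on the C57BL/6 strain and labelled as 3 weeks old, whereas the results section of the study gives 4 weeks for its bulk RNA-seq. *Mkx* encodes Mohawk, a homeobox factor of tendon cells, and *Mkx*-/- mice lack it on both alleles. The targeted exon is not given in the sources used here. *Mkx* itself had 1381 to 1825 counts in WT and 491 to 620 counts in *Mkx*-/- libraries (log2 fold change -1.60, SE 0.16, adjusted p = 0.00183 by edgeR), and these counts per gene do not show which exons they came from. Total counts ran from 10835070 to 14160301 per library. WT replicate 3 was the single library with counts on the Y-linked gene *Ddx3y* (301), and it had 1 count of *Xist*, against 1289 to 1866 in the others. By these counts WT replicate 3 was male and the other libraries female, so sex was not balanced between the genotypes. The part of sex in the results was not tested. All 8 tendon markers examined, among them *Tnmd*, *Scx* and *Col1a1*, were present. The 8 summed to 382027 to 524514 CPM in WT and 245271 to 340178 CPM in *Mkx*-/- tendons, without overlap. Most of each sum was *Col1a1* and *Col1a2*, at means of 185335 and 257911 CPM in WT and 115592 and 127464 in *Mkx*-/- tendons. The median log2 fold change of the 8 was -0.03. *Col1a1*, *Col1a2* and *Scx* had -0.68, -1.02 and -1.14, and *Tnmd*, *Fmod* and *Dcn* -0.02, 0.11 and -0.03. *Comp* and *Thbs4* had 0.88 and 1.26. Of the 8, 1 passed the test below, upward (*Thbs4*). The markers of other cells were also there, and their part in the results below was not tested. Skeletal muscle markers summed to 37.7 to 409 CPM in WT and 551 to 3031 CPM in *Mkx*-/- tendons. Schwann cell markers summed to 7570 to 10044 CPM in WT and 11840 to 22083 CPM in *Mkx*-/- tendons, endothelial markers to 58.8 to 73.8 and 71.4 to 151 CPM, and keratinocyte markers to 0.788 to 9.13 and 13.3 to 20.2 CPM. *Mkx*-/- replicate 3 stood apart with 2548 counts of the smooth muscle gene *Myh11*, against 25 to 39 in the other 5 libraries. In bulk tissue, fewer cells of a type and less RNA per cell cannot be told apart.

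Of the 10 genes, 7 had enough counts to be tested, and *Ptger1*, *Ptger2* and *Ptger3* did not. *Hpgd*, *Ptges* and *Ptgis* fell in *Mkx*-/- tendons, and 0 of the 7 rose. A gene was said to rise or fall where edgeR's quasi-likelihood test gave an adjusted p under 0.05 over all 14550 genes tested, a level reached downward by 2.26% and upward by 3.18% of these genes (329 and 463, or 197 and 1358 with scaling by library size alone). *Hpgd* and *Ptges* were also past the study's fold threshold, a log2 fold change (log2FC, *Mkx*-/- over WT) below -1, and 1.33% of the tested genes were past both thresholds in this direction. At an unadjusted p under 0.05, 5 of the 7 were lower and 0 higher, where 10.1% and 12.5% of all tested genes were. Because these genes and the lists below were chosen with earlier results of these data known, such shares do not test the set. At an adjusted p under 0.05, DESeq2 gave 3 lower and 0 higher, beside 565 and 768 of the 25777 genes it fitted. In 5 genes, *Hpgd*, *Ptges*, *Ptgis*, *Ptgs2* and *Ptgfr*, all 3 *Mkx*-/- libraries lay below all 3 WT libraries, as they did for 13.6% of the genes tested. The plot of levels by library shows this separation, and the plot of fold changes gives the interval for each gene.

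**Figure D1:**
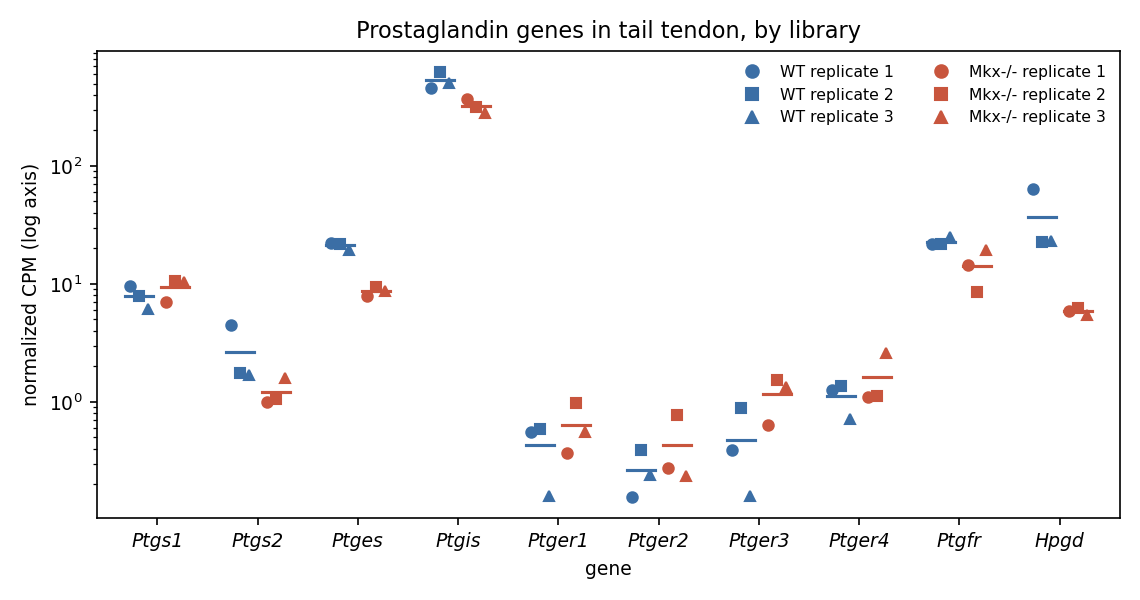
Normalized CPM (log axis) of the 10 prostaglandin genes in each of 3 WT (blue) and 3 *Mkx*-/- (red) libraries, with marker shapes for the replicate number and a bar at the mean of each group. *Ptgis* is the most abundant in both groups, *Hpgd* and *Ptges* are clearly separated between the genotypes, and *Ptger1* to *Ptger4* lie near or below 1 CPM, with *Ptger4* up to 2.62 CPM.

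**Figure D2:**
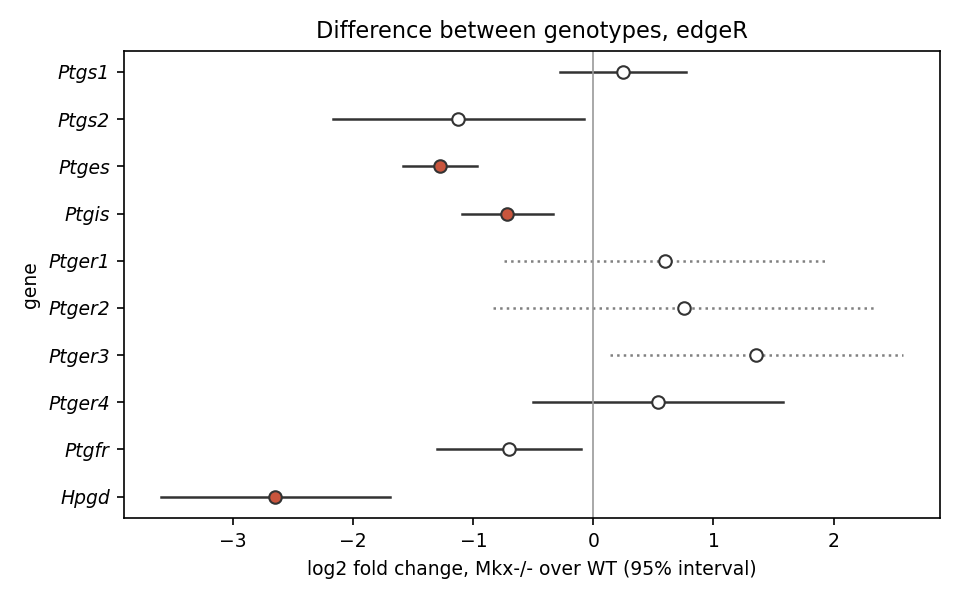
Log2 fold change of *Mkx*-/- over WT from edgeR with 95% intervals, filled where the adjusted p was under 0.05. Dotted intervals belong to *Ptger1*, *Ptger2* and *Ptger3*, which had too few counts for the test over 14550 genes and were fitted with every gene of at least 1 count kept. *Hpgd*, *Ptges* and *Ptgis* lie to the left of 0 with filled points.

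*Hpgd*, whose enzyme takes the initial step in prostaglandin breakdown, showed the largest difference of the 7. It lies at chr8:58773349-58799843 (plus strand, mm9), with no overlapping gene in the GENCODE annotation of that build. Its level was 64.4, 22.9 and 23.0 CPM in the WT libraries and 5.86, 6.25 and 5.47 CPM in the *Mkx*-/- libraries. The groups did not overlap, and WT replicate 1 stood far above the other WT libraries. The WT mean of 36.7 ± 23.9 CPM compares with 5.86 ± 0.392 CPM in the knockouts (SD, n = 3 per genotype). It fell with a log2FC of -2.65 (SE 0.42, adjusted p = 0.0121 by edgeR), or 6.27-fold lower. Without WT replicate 1 the log2FC was -1.97 (adjusted p = 0.000386 by edgeR), so the size of the fall rests in part on that library, and the call was kept. The adjusted p came closest to the threshold without *Mkx*-/- replicate 3, at 0.0495.

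*Ptges*, the inducible microsomal synthase that makes prostaglandin E, fell as well, with little spread within either group. It is annotated at chr2:30744991-30785383 (minus strand, mm9). Its level was 22.2, 21.8 and 19.5 CPM in WT and 7.97, 9.34 and 8.80 CPM in *Mkx*-/- libraries. The highest *Mkx*-/- library was thus well under the lowest WT library. The WT mean was 21.2 ± 1.43 CPM and the knockout mean 8.70 ± 0.693 CPM (SD, n = 3 per genotype), for a log2FC of -1.28 (SE 0.13, adjusted p = 0.00217 by edgeR) and a fall of 2.43-fold. This call held in all 15 alternative fits, with adjusted p up to 0.0162.

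The stretches just upstream of the RefSeq start sites of these genes are shown because *Hpgd* and *Ptges* are the members past both thresholds. RefSeq sequences were matched to mm9, where *Hpgd* lies at chr8:58773099-58773348 on the plus strand and *Ptges* at chr2:30758818-30759067 on the minus strand, inside the longer GENCODE record of that gene. Each is 250 bases, 5′ to 3′, and capitals mark the GC box GGGCGG or its reverse complement, the letters bound by Sp1-type factors.
*Hpgd*: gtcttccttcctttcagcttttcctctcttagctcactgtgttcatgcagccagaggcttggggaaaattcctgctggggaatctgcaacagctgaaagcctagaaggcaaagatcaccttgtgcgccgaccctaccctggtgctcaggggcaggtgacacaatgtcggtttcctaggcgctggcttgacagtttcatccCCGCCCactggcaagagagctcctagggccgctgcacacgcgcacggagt
*Ptges*: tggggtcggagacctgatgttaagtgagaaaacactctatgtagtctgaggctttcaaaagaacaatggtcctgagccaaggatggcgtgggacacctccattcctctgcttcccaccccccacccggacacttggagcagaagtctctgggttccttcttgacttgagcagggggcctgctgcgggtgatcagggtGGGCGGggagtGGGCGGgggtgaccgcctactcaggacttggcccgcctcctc
The window of *Hpgd* held 1 GC box, on the minus strand 45 to 50 bases before the start. That of *Ptges* held 2, at 48 to 53 and at 37 to 42 bases before the start. The GC box was present in 32.7% of the 32851 upstream windows of the RefSeq table. Also searched on both strands were the TATA box TATAAA, held by 12.4% of all windows, the CCAAT box (CCAAT), held by 33.8%, and the AP-1 letters TGANTCA, held by 6.75%. The cAMP response element TGACGTCA was held by 1.55% and its shorter form TGACG, which lies within it, by 17.8%. None of these occurred in either window. A match is a description of the letters only.

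*Ptgis*, which encodes prostacyclin synthase, was by far the most abundant gene of the 10, and its fall was smaller and closer to the threshold. It lies at chr2:167017305-167066104 (minus strand, mm9), and its exons overlap those of *1110018N20Rik* on the opposite strand, which had 0 to 6 counts. The level was 462, 626 and 508 CPM in WT and 369, 319 and 283 CPM in *Mkx*-/- libraries, without overlap between the groups. The WT mean of 532 ± 84.6 CPM, beside 324 ± 43.5 CPM in the knockouts (SD, n = 3 per genotype), placed *Ptgis* at rank 111 of all gene symbols in WT. That rank is by CPM, without correction for gene length. The log2FC was -0.72 (SE 0.17, adjusted p = 0.0459 by edgeR). Leaving out single libraries lost the call in all cases but WT replicate 1, with adjusted p of 0.132 and 0.119 without WT replicates 2 and 3, and 0.0563, 0.135 and 0.163 without *Mkx*-/- replicates 1, 2 and 3. It was also lost when counts were scaled by library size alone (edgeR adjusted p = 0.0661, log2FC -0.46).

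Levels of different genes can be compared only per length, here as CPM per kb of annotated exon. On that scale *Ptgis* had 207 ± 32.9 in WT tendon, against 5.39 ± 0.365 for *Ptges* (SD, n = 3 each), and the libraries of the genes did not overlap. *Hpgd* came between them at 21.4 ± 13.9 in WT. In *Mkx*-/- tendons *Hpgd* stood at 3.41 ± 0.228 and *Ptges* at 2.21 ± 0.176, again on the per-kb scale, while *Ptgis* remained far above both at 126 ± 16.9. *Ptges2*, a constitutive synthase of prostaglandin E, overlapped with *Ptges* in the WT libraries at 4.49 ± 0.439. It stood above *Ptges* in every *Mkx*-/- library, at 6.08 ± 0.288 CPM per kb. *Ptges3*, another synthase examined, is named here after its values were seen. At 3.22 ± 0.314 CPM per kb it was below *Ptges* in every WT library. In *Mkx*-/- tendons *Ptges3* had 3.01 ± 0.273 CPM per kb and was above *Ptges* in every library.

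The cyclooxygenases are the shared entry to all these products. *Ptgs1*, the constitutive enzyme, is at chr2:36085946-36107792 (plus strand). It had 9.61, 7.95 and 6.17 CPM in WT and 7.05, 10.7 and 10.4 CPM in *Mkx*-/- libraries, which overlapped. Its log2FC of 0.25 (95% interval -0.27 to 0.77, adjusted p = 0.571 by edgeR) did not pass the test.
*Ptgs2*, the inducible enzyme, is at chr1:151947254-151955140 (plus strand). It was sparse, with 57, 18 and 21 counts in WT and 11, 15 and 20 counts in *Mkx*-/- libraries. Scaled, these were 4.49, 1.77 and 1.68 CPM for WT and 1.01, 1.05 and 1.59 CPM for *Mkx*-/-, with WT replicate 1 again the highest. The log2FC was -1.12 (95% interval -2.17 to -0.08, adjusted p = 0.190 by edgeR), and -0.50 without WT replicate 1, so a fall was not shown. Within a library the pair can be set against each other without any scaling. *Ptgs2* made up 31.8%, 18.2% and 21.4% of the *Ptgs1* and *Ptgs2* counts of WT libraries, against 12.5%, 8.98% and 13.2% of those of *Mkx*-/- libraries. The groups did not overlap, but with so few reads the exact (Clopper-Pearson) 95% interval ran from 11.1% to 27.2% in WT replicate 2 and from 8.28% to 19.7% in *Mkx*-/- replicate 3. These intervals cover counting error only. The difference in the log2 ratio of *Ptgs2* to *Ptgs1* was -1.24 (exact permutation test over samples, two-sided, p = 0.1, the smallest that 3 against 3 can give).

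The RNA counts of *Ptges*, a synthesis gene, and *Hpgd*, a breakdown gene, can be set against each other in the same way. For each count of *Hpgd* there were 0.345, 0.953 and 0.850 counts of *Ptges* in WT, and 1.36, 1.49 and 1.61 in *Mkx*-/- libraries. The ratio was thus higher in every *Mkx*-/- library. The difference in log2 ratio was 1.18 (exact permutation test, two-sided, p = 0.1, the smallest possible here), and 0.72 without WT replicate 1, the library with the high *Hpgd* level. *Ptgs1* made up at most 25.8% of the *Ptgs1* and *Hpgd* counts in WT, and at least 54.6% in *Mkx*-/- libraries. Of the 5 such ratios computed, each had this same smallest p. Each holds a gene whose groups already did not overlap (*Hpgd*, *Ptges*, *Ptgis* or *Ptgs2*), so these p-values are not independent support. These are ratios of counts and not of molecules, as the genes differ in length. They do not measure enzymes or prostaglandins, and other synthases are left out of the *Ptges* to *Hpgd* ratio. The plot of within-library shares shows the *Ptgs2* and *Ptges* pairs.

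**Figure D3:**
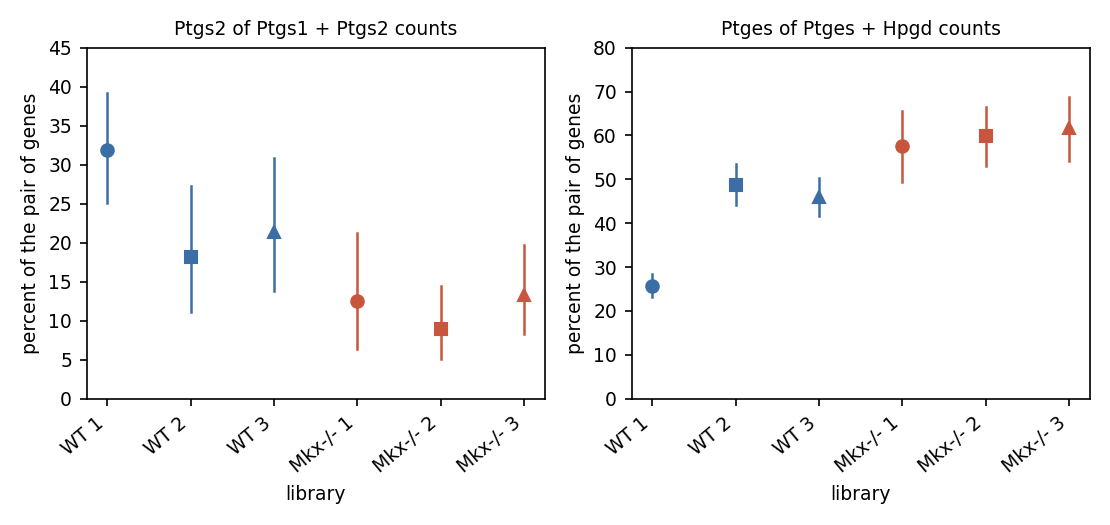
Share of *Ptgs2* in the counts of *Ptgs1* and *Ptgs2* together (left, percent) and share of *Ptges* in the counts of *Ptges* and *Hpgd* together (right, percent) in each WT (blue) and *Mkx*-/- (red) library, with exact 95% binomial intervals for counting error. The *Ptgs2* share is 18.2% to 31.8% in WT and 8.98% to 13.2% in *Mkx*-/- libraries, and the *Ptges* share is 25.7% to 48.8% in WT and 57.6% to 61.7% in *Mkx*-/- libraries.

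Among receptors, tail tendon carried mainly those for prostaglandin F, thromboxane and prostacyclin, and very little of the prostaglandin E receptors. *Ptgfr*, which couples to Gq and calcium release, is at chr3:151461882-151500594 (minus strand). It had 21.7, 21.7 and 25.2 CPM in WT and 14.4, 8.50 and 19.3 CPM in *Mkx*-/- libraries. All *Mkx*-/- libraries were lower, but they were spread widely. The log2FC of -0.71 (SE 0.26, 95% interval -1.31 to -0.11) did not pass the test (adjusted p = 0.156 by edgeR), and it was -0.44 without *Mkx*-/- replicate 2 and -1.01 without *Mkx*-/- replicate 3.
*Ptger4*, the cAMP-raising EP4 receptor, had 16, 14 and 9 counts in WT and 12, 16 and 33 counts in *Mkx*-/- libraries. Its exons, at chr15:5156661-5194187 (minus strand), overlap those of *Ttc33*, which had 109 to 200 counts, and of the pseudogene *Gm15937* on the other strand, so the counts are uncertain. The log2FC was 0.54 (95% interval -0.51 to 1.58, adjusted p = 0.535 by edgeR) and 0.0017 without *Mkx*-/- replicate 3, the library with the high *Myh11* counts.
*Ptger3*, the Gi-coupled EP3 receptor, had 5, 9 and 2 counts in WT and 7, 22 and 17 counts in *Mkx*-/- libraries. *Ptger1* and *Ptger2*, the EP1 receptor and the cAMP-raising EP2 receptor, had 2 to 7 and 2 to 4 counts in WT and 4 to 14 and 3 to 11 counts in *Mkx*-/- libraries. These receptors lie at chr3:157229856-157307722, chr8:86190732-86196652 and chr14:45607870-45623495, each on the plus strand, and the few counts of *Ptger1* are uncertain. The groups overlapped in all 3 genes. When every gene with at least 1 count was kept, *Ptger3* had a log2FC of 1.36 (95% interval 0.14 to 2.58, adjusted p = 0.237 by edgeR), while the interval was -0.75 to 1.94 for *Ptger1* and -0.84 to 2.36 for *Ptger2*. A difference was not detectable at this depth in any of the 3.

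In order of level per kb in WT, *Ptgfr* led with 5.25 ± 0.465 CPM per kb and was above all others in every WT library. *Tbxa2r*, the thromboxane receptor, and *Ptgir*, the prostacyclin receptor, followed at 3.05 ± 0.558 and 2.52 ± 0.628, and did not differ beyond their spread. The prostaglandin E receptors formed a lower group, with *Ptger4* at 0.168 ± 0.0525, *Ptger3* at 0.105 ± 0.0810, *Ptger1* at 0.0874 ± 0.0479 and *Ptger2* at 0.0715 ± 0.0324 CPM per kb (SD, n = 3 each), and each overlapped with the next in the order. The prostaglandin D receptors *Ptgdr* and *Gpr44* had 1 and 2 counts over all 6 libraries. In *Mkx*-/- tendons *Tbxa2r* stood at 5.80 ± 2.15 and *Ptgfr* at 3.23 ± 1.24 CPM per kb, with overlapping libraries. *Tbxa2r* had 5.86, 12.2 and 12.6 CPM in the *Mkx*-/- libraries against 4.25, 5.79 and 6.09 CPM in WT, a log2FC of 0.94 that did not pass the test (adjusted p = 0.112 by edgeR). *Ptgir* had a log2FC of -0.58 (adjusted p = 0.239 by edgeR), and *Ptgfrn*, a membrane protein that inhibits *Ptgfr*, had 542 ± 197 CPM in WT and a log2FC of -0.25 (adjusted p = 0.661 by edgeR).

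**Figure D4:**
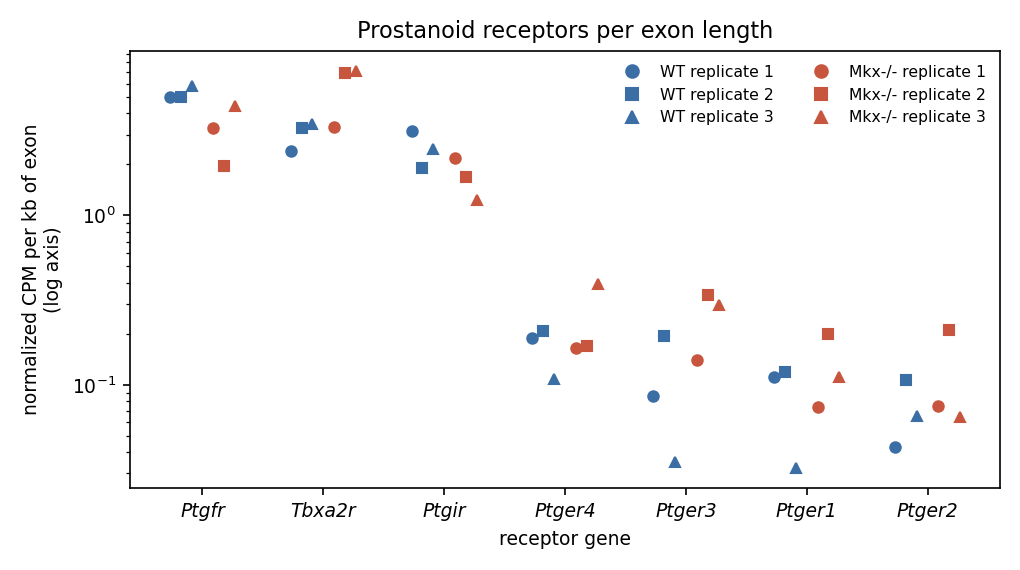
Normalized CPM per kb of exon (log axis) of 7 prostanoid receptor genes in each WT (blue) and *Mkx*-/- (red) library. *Ptgfr*, *Tbxa2r* and *Ptgir* lie above 1 in every library, and the prostaglandin E receptors *Ptger1* to *Ptger4* reach at most 0.394.

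The wider pathway was described with 8 lists holding 89 further genes, of which 65 were tested. Of these 65, 5 fell and 1 rose by the same test, beside 2.26% and 3.18% of all genes tested. All 3 *Mkx*-/- libraries lay below all WT libraries in 13 of the 65 and above them in 9, where 13.6% and 14.6% of all tested genes did so. The median log2FC of the 65 was -0.02, beside -0.0037 over all genes tested. The number that fell was 6 without WT replicate 1, 2 and 1 without WT replicates 2 and 3, and 3, 1 and 1 without *Mkx*-/- replicates 1, 2 and 3. The number that rose was 3, 0 and 1 without the WT replicates in turn, and 2, 1 and 0 without those of *Mkx*-/-. Over all genes, 439, 131 and 127 fell without the WT replicates in turn, and 209, 144 and 137 without those of *Mkx*-/-. Those that rose were 539, 137 and 117, and 395, 183 and 213.

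Upstream of the cyclooxygenases, *Pla2g5*, a secreted phospholipase that frees fatty acids from membranes, fell strongly. It had 275, 376 and 414 CPM in WT and 99.4, 94.5 and 85.4 CPM in *Mkx*-/- libraries, with no overlap. The log2FC was -1.93 (SE 0.18, adjusted p = 0.00135 by edgeR), and it passed in all 15 alternative fits. Of the 12 phospholipases listed 6 were tested, and the other 5 did not pass. *Pla2g6* and *Pla2g2a* showed log2FC of -0.41 and -0.34, and GENCODE lists *Pla2g2a* as a processed transcript and not as protein-coding. *Pla2g4a*, the cytosolic enzyme that is the classical source of arachidonic acid, is named here after its values were seen. It had 9.77 to 15.5 CPM in WT and 8.01 to 13.4 CPM in *Mkx*-/- libraries, with a log2FC of -0.30 (adjusted p = 0.523 by edgeR).

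Of the 7 other synthases 6 were tested, and *Hpgds* and *Tbxas1*, the synthases of prostaglandin D and thromboxane, fell. *Hpgds* had 4.10, 5.99 and 6.09 CPM in WT and 2.29, 2.11 and 1.27 CPM in *Mkx*-/- libraries (log2FC -1.51, SE 0.29, adjusted p = 0.0259 by edgeR). *Tbxas1* had 5.36, 11.2 and 11.5 CPM in WT and 3.57, 2.25 and 2.38 CPM in *Mkx*-/- libraries (log2FC -1.78, SE 0.34, adjusted p = 0.0239 by edgeR). Neither gene overlapped between the groups. Both calls were lost without WT replicate 2 or 3 and without *Mkx*-/- replicate 2 or 3, with edgeR adjusted p of at least 0.0715 for *Hpgds* and 0.0838 for *Tbxas1*.
*Hpgds* and *Tbxas1* are typical of blood-derived cells such as macrophages, mast cells and platelets, whose markers are given here beside them. The 9 macrophage and leukocyte markers summed to 515 to 574 CPM in WT and 346 to 422 CPM in *Mkx*-/- libraries, with *Csf1r* and *Emr1* past the test downward. The platelet and megakaryocyte markers summed to 29.8 to 40.1 CPM in WT and 22.4 to 27.4 CPM in *Mkx*-/- libraries, with 2 of 5 tested and *Gp1ba* at 0 in every library. Of the 7 mast cell markers *Kit* alone was tested and fell, with 125 to 136 counts in WT and 24 to 50 in *Mkx*-/- libraries. The mast cell proteases *Cpa3*, *Cma1*, *Mcpt4* and *Tpsb2* had 0 to 6 counts in every library. *Cpa3* had 0 in WT and 1 to 4 in *Mkx*-/- libraries, and *Hdc* had 0 to 1 and 3 to 4. *Mcpt4* had 0 to 3 and 0 to 6, *Tpsb2* 0 to 1 and 0 to 6, and *Cma1* 0 to 1 in both. *Ms4a2* had 0 in every library. The part of all these cells in the levels of *Hpgds* and *Tbxas1* was not tested. *Ptges2* had a log2FC of 0.44 that did not pass (adjusted p = 0.115 by edgeR), with every *Mkx*-/- library above every WT library.

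Of 7 genes for transport and further inactivation 6 were tested and 0 passed, while 2 were higher and 1 lower at an unadjusted p under 0.05 (12.5% and 10.1% of all tested genes). *Slco2a1*, the prostaglandin importer, and *Ptgr1*, a reductase of oxidized prostaglandins, showed log2FC of 0.47 and 0.49 (adjusted p = 0.129 and 0.194 by edgeR), with all *Mkx*-/- libraries above WT. *Zadh2*, another reductase of this family, had -0.42 (adjusted p = 0.130 by edgeR). *Hpgd* was thus the sole breakdown gene past the test among those examined.
In the lipoxygenase branch, which uses the same arachidonic acid to make leukotrienes, 7 of 14 genes were tested and 0 passed, with 1 higher and 2 lower at an unadjusted p under 0.05, beside the same shares of all genes. *Alox12* had 4 to 6 counts in WT and 10 to 24 counts in *Mkx*-/- libraries, and *Cysltr1*, a leukotriene receptor, had 14 to 20 and 2 to 8 counts. Their log2FC were 1.64 and -1.56 (adjusted p = 0.0663 and 0.0800 by edgeR). *Alox5* had -0.60 (adjusted p = 0.151 by edgeR), and *Lta4h*, the most abundant of the list at 52.4 ± 5.41 CPM in WT, had -0.09.

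Downstream of EP2 and EP4, 21 of 22 genes of cAMP signalling were tested and 0 passed, while 5 were higher and 0 lower at an unadjusted p under 0.05 (12.5% and 10.1% of all tested genes). *Rapgef4*, a cAMP-gated exchange factor, and *Prkar1b*, a regulatory subunit of protein kinase A, showed log2FC of 1.31 and 0.99 (adjusted p = 0.0663 and 0.0727 by edgeR), with all *Mkx*-/- libraries above WT. *Adcy5* had 20.3 CPM in *Mkx*-/- replicate 3 and 1.84 to 6.82 CPM elsewhere. *Gnas*, the most abundant of the list, had a log2FC of 0.08 (adjusted p = 0.830 by edgeR).
Among 8 genes that cAMP and CREB induce, 7 were tested, of which *Nr4a2* rose and *Fos* fell. *Nr4a2*, an orphan nuclear receptor, had 16.1, 15.2 and 23.0 CPM in WT and 35.2, 36.0 and 57.2 CPM in *Mkx*-/- libraries (log2FC 1.24, SE 0.24, edgeR adjusted p = 0.0247, and 0.0991 and 0.0552 without WT replicate 2 and *Mkx*-/- replicate 3). *Fos* had 135, 36.1 and 90.4 CPM in WT and 17.3, 24.0 and 28.2 CPM in *Mkx*-/- libraries (log2FC -1.91, SE 0.42, edgeR adjusted p = 0.0404, lost without WT replicate 3 and without any one of the *Mkx*-/- libraries, up to 0.111, and at 0.0774 in a robust fit). *Nr4a1* had 0.75 (adjusted p = 0.0959 by edgeR), and *Per1* 0.09.

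Signals that induce *Ptgs2* and proteins that control its mRNA formed the last list, with 9 of 14 tested. *Zfp36*, which promotes decay of mRNAs such as that of *Ptgs2*, fell, from 65.8, 41.8 and 46.9 CPM in WT to 30.6, 32.1 and 26.9 CPM in *Mkx*-/- libraries (log2FC -0.79, SE 0.18, adjusted p = 0.0454 by edgeR). The call was kept only without WT replicate 1 among the single-library omissions, and the adjusted p rose to 0.153 without *Mkx*-/- replicate 3. With scaling by library size alone it was 0.141. The inflammatory cytokines *Il1a*, *Il1b*, *Il6* and *Tnf* had 0 to 5 counts in every library of either genotype. The kinases *Mapk14* and *Mapkapk2* showed log2FC of -0.30 and -0.22 (adjusted p = 0.176 and 0.306 by edgeR), and the receptor *Tnfrsf1a*, the most abundant of the list, had 0.07. The plot of the lists shows the spread of all 65 genes.

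**Figure D5:**
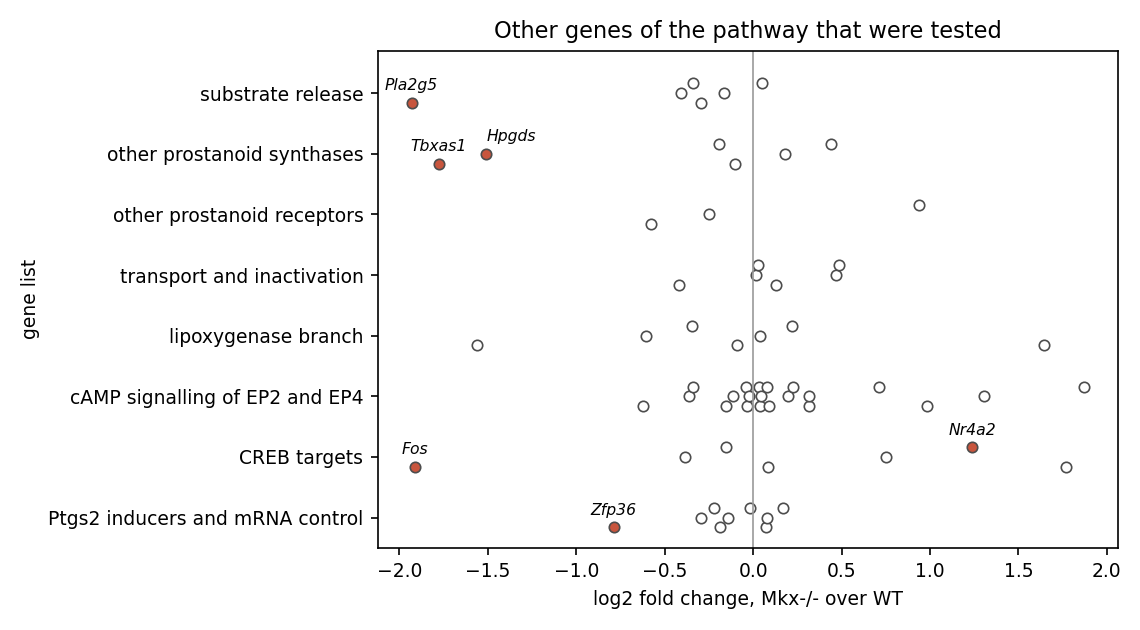
Log2 fold change of *Mkx*-/- over WT for the 65 tested genes in 8 pathway lists, 1 point per gene, filled and named where the edgeR adjusted p was under 0.05. *Pla2g5*, *Tbxas1*, *Hpgds*, *Fos* and *Zfp36* lie to the left of 0 and *Nr4a2* to the right.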

How the data were processed

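Total RNA of tail tendon was sequenced on the Ion Proton system as 3 WT and 3 *Mkx*-/- libraries. Per the study's methods, the authors trimmed adaptors, discarded reads of poor quality, aligned the rest to mm9 with MapSplice and deposited raw counts per gene symbol, without normalization. The counting program, its annotation and its use of strand are not given in the sources used here, so counts of genes that overlap on opposite strands are uncertain. All 6 columns were matched to samples by label and 0 were left unused.

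From these counts, CPM and log2 fold changes came from edgeR 4.0.16 under R 4.3.3 (TMM scaling, filterByExpr, quasi-likelihood test on genotype, prior count 0.125), with Benjamini-Hochberg adjustment over the 14550 genes kept. Standard errors were derived from the F statistic. DESeq2 was version 1.42.0. The fits were tested on simulated data. The alternatives were DESeq2, other scalings and filters, a robust fit, removal of skeletal muscle markers, a replicate block and each library left out. Leaving libraries out of the within-library ratios was added after seeing the data. Pairs of libraries within a genotype had chi-square values of 7.59 to 36.4 per degree of freedom, more than sampling noise, and were counted as separate samples. Whether the libraries came from separate mice or pools is not stated beyond their labels, so p-values measure the spread between these samples.

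Exon lengths and coordinates are from GENCODE M1 (mm9). RefSeq upstream windows were found for 8 of the 10 genes. All 10 members were named, and of each list those past the test, filled up to 3 with the next smallest p, and the most abundant. The members and lists were chosen with earlier results of these data known.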

Additional observations from a re-analysis of the deposited data

How the results depend on the processing

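Of the 10 genes, 0 were past the test upward in any of the 15 alternative fits, and 3 or 2 downward, *Ptgis* being the gene lost. *Hpgd* and *Ptges* stayed past the threshold in all 15. None of the 7 tested genes changed direction. Among the 89 further genes, the 1 that rose became 5 under DESeq2, 8 with scaling by library size alone, 6 with the filter of 1 count in any library, and 0 to 3 in the fits that left out a library. The 5 that fell became 4 in the robust fit and with scaling by library size alone, 1 with the replicate number as a block, and 1 to 6 in the fits that left out a library. Over all genes, the 463 higher and 329 lower became 768 and 565 under DESeq2, 1358 and 197 with scaling by library size alone, 970 and 594 with the filter of 1 count, 264 and 170 with the block, and 117 to 539 and 127 to 439 with a library left out. Scaling by library size alone raised the median log2 fold change over all genes by 0.25. The cause of these shifts was not tested.

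The replicate numbers did not pair the libraries throughout. Same-numbered WT and *Mkx*-/- libraries had correlations of 0.026, -0.21 and 0.30 between their deviations from the group means. The highest correlation with another number was 0.40, 0.40 and 0.24, so number 3 alone matched best with its own number. As a block the number left 2 of the 10 genes past the test downward (without *Ptgis*) and 0 upward, and *Hpgds*, *Tbxas1*, *Fos* and *Zfp36* were not past it.

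Of the 10 genes, the prostaglandin E receptors had the fewest counts summed over the 6 libraries, with 2 to 33 per library for each receptor. The *Ptges* to *Hpgd* difference in log2 ratio, recomputed after seeing the data, was 0.72 to 1.45 with a library left out, and that of *Hpgd* to *Ptgis* went from -1.75 to -1.16 without WT replicate 1.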
